A study of Homo sapiens with 16 samples.

Results

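BMAL1 chromatin immunoprecipitation peak lists of U2OS and U2OS-CHRONO cells were compared at the time points labelled 16 h and 20 h. Overlapping peaks of these 4 lists were merged into 14516 regions. A region with a peak at both times in U2OS-CHRONO and at neither time in U2OS is called U2OS-CHRONO-only here, and the reverse is called U2OS-only. There were 1844 U2OS-CHRONO-only regions (12.7% of the 14516) and 185 U2OS-only regions (1.27%), and 1331 regions had a peak in all 4 lists. The U2OS-CHRONO list was the longer at both times, so each was also shortened to its highest-scoring peaks, as many as U2OS had at that time. With these equal lists there were 10193 regions, of which 522 (5.12%) were U2OS-CHRONO-only, 357 (3.5%) were U2OS-only and 1119 were in all 4 lists. The 12 BMAL1 lists of the series together gave 20968 regions.

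U2OS is a human osteosarcoma cell line, labelled U2OS_WT in the sample titles. The other line is labelled U2OS_CHR or U2OS-CHR and named U2OS-CHRONO in the series design. How that line was made, and whether it is 1 clone, is not given in the sources used here. Both lines received 200 nM dexamethasone, a glucocorticoid used to synchronise the clocks of cultured cells, and were collected every 4 h at labels 0 to 20 h, beginning 4 h ahead of the trough of luciferase driven by the BMAL1 promoter. There was 1 library per line and time, so no comparison at a single time has a replicate. The series also holds 1 library from U2OS-CHRONO made with an antibody to Myc, with no time label, whose target the design names as Myc-CHRONO, while its 3 input libraries were not analysed here.

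BMAL1 pairs with CLOCK or NPAS2, and the pair binds E-boxes, short DNA elements whose standard form is CACGTG, to activate clock genes. Among its targets are the genes of its own repressors: PER and CRY proteins, which block the pair; NR1D1 and NR1D2, which repress the BMAL1 gene; and BHLHE40 and BHLHE41, which compete for the E-box. CHRONO, encoded by CIART, is another repressor that binds the BMAL1 and CLOCK pair, and its gene is itself a BMAL1 target.

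Promoter sequences are shown for regions with the highest score percentiles among those that overlap a promoter window, 1 promoter per region, to let the reader compare the DNA under peaks of 1 line with that under shared peaks. Each is the 250 bases before a RefSeq transcription start (GRCh38.p14, the assembly also called hg38), read 5′ to 3′ on the gene's strand. Capitals mark CACGTG, or CACGTT read on either strand (AACGTG on the other). In all 9 the region overlapped the 300-base window from 250 bases before to 50 after the start. ACBD5, KLHDC3, ZNF84 and ZCCHC2 lay in regions that were U2OS-CHRONO-only in both versions, CIART and ANKS3 in U2OS-only regions, and DBP, NR1D1 and TEF in regions of all 4 lists.
ACBD5, chr10:27240487-27240736, minus strand: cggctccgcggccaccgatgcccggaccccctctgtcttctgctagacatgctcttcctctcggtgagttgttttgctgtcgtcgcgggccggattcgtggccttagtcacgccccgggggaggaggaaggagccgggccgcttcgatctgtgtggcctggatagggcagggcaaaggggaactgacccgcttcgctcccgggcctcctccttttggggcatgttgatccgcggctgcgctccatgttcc
KLHDC3, chr6:43013999-43014248, plus strand: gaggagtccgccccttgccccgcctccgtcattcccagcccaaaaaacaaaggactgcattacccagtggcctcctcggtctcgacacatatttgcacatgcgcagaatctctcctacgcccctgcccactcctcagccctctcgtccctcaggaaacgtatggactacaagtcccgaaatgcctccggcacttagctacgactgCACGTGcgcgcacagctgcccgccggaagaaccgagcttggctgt
ZNF84, chr12:133037259-133037508, plus strand: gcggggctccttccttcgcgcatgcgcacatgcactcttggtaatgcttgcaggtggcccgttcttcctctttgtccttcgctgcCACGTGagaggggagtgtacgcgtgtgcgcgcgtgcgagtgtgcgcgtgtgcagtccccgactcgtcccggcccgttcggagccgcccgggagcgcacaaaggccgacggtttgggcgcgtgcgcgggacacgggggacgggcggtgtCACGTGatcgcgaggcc
ZCCHC2, chr18:62522775-62523024, plus strand: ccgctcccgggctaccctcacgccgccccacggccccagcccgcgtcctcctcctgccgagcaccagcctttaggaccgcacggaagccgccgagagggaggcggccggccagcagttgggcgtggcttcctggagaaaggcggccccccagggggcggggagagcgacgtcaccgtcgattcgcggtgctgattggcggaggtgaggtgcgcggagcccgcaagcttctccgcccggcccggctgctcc
CIART, chr1:150282304-150282553, plus strand: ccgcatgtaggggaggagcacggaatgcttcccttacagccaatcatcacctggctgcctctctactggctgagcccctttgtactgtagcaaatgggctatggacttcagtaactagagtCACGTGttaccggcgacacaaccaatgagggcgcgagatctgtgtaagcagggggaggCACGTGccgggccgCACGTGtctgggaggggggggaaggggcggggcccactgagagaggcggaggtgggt
ANKS3, chr16:4734272-4734521, minus strand: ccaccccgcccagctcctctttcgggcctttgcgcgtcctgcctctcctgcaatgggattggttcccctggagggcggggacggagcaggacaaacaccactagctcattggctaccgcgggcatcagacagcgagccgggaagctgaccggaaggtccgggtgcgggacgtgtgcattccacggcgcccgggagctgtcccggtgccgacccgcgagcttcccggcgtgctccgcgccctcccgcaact
DBP, chr19:48637380-48637629, minus strand: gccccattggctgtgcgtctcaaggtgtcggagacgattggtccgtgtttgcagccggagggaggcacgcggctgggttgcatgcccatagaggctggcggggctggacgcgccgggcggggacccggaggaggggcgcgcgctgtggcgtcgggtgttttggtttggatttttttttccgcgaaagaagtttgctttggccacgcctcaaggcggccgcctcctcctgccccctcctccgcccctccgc
NR1D1, chr17:40100590-40100839, minus strand: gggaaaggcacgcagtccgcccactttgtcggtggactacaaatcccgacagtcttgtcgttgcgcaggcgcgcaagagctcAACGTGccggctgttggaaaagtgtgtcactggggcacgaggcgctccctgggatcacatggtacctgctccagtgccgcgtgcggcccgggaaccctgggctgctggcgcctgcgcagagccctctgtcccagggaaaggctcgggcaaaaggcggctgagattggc
TEF, chr22:41381692-41381941, plus strand: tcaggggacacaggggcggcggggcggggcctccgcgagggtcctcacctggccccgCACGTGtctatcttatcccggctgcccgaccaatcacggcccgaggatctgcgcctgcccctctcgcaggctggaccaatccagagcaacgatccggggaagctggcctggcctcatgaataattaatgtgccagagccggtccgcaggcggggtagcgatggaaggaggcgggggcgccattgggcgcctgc
The CIART promoter held 3 CACGTG elements, beginning 129, 71 and 57 bases before the start. ZNF84 held 2, at 165 and 17 bases, KLHDC3 held 1 at 45 bases and TEF held 1 at 193 bases. NR1D1 had the CACGTT form at 168 bases. ACBD5, ZCCHC2, ANKS3 and DBP had neither in this window, so the element did not separate the regions of 1 line from the shared ones in these examples. Of the genes that share these regions and are not printed, MEA1 (with KLHDC3) and DNAAF8 (with ANKS3) had neither form in their own windows. LOC124904414 (with CIART) had CACGTG at 248 bases, which is the same element as the CIART one at 129 bases, read from the other strand.

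The lists at 16 h held 2794 peaks in U2OS and 9391 in U2OS-CHRONO, a ratio of 3.36. At 20 h they held 6012 and 6873, a ratio of 1.14. Of these 2 times, the excess of U2OS-CHRONO peaks was thus larger at 16 h. It was not particular to 16 h, as the ratios at 0, 4, 8 and 12 h were 1.65, 1.56, 7.21 and 2.17. Each peak carries a score from the authors. It ranks peaks within a list, and its definition is not given in the sources used here. The median score was 67.05 and 71.4 in U2OS at 16 and 20 h and 76.45 and 77.19 in U2OS-CHRONO. Read depth and enrichment are not known, so a longer list from them and more binding cannot be told apart. At equal length the U2OS-CHRONO lists ended at scores of 107.95 at 16 h, where the first peak left out had the same score, and 54.11 at 20 h, where the first left out had 54.1.

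The most frequent combination with all peaks was a peak in U2OS-CHRONO at 16 h alone, in 3860 regions. A further 2104 regions had a peak in U2OS at 20 h alone and 1943 in U2OS-CHRONO at 20 h alone, and 725 had one in U2OS at 16 h alone. Another 1194 regions had a peak in every list but U2OS at 16 h, and 614 had the crossed pattern of U2OS at 20 h and U2OS-CHRONO at 16 h. Equal lists cut the regions of U2OS-CHRONO at 16 h alone to 231. The crossed pattern fell to 100 there.

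**Figure D1:**
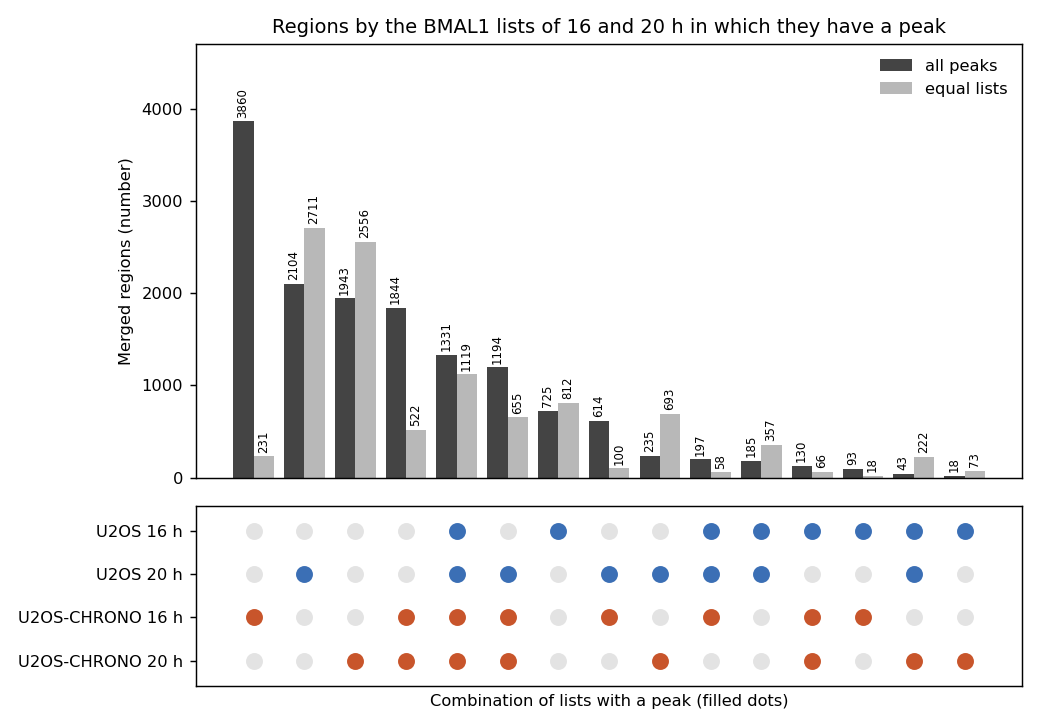
Number of merged regions (vertical axis) for each combination of the 4 lists in which a region has a peak (filled dots, blue for U2OS and orange for U2OS-CHRONO), with all peaks (dark bars) and equal lists (light bars). The 1844 U2OS-CHRONO-only regions with all peaks become 522 at equal length, while the U2OS-only regions go from 185 to 357.

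All 522 U2OS-CHRONO-only regions of the equal lists were also U2OS-CHRONO-only with all peaks. That follows from the rule, since the U2OS lists were not shortened. Of the 357 U2OS-only regions, 185 were U2OS-only with all peaks, and the other 172 (48.2%) had a lower-scoring U2OS-CHRONO peak at 16 or 20 h, at both times in 22 of them. The direction of the imbalance was the same with both versions, at 1844 against 185 and at 522 against 357, and its size was not. Equal lists matched the number of peaks and not the lowest score, which at 16 h was 107.95 in U2OS-CHRONO and 50.01 in U2OS. Whether this cut produced the remaining imbalance was not tested.

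A region that differed at 16 h often did not differ at 20 h. With equal lists 1508 regions had a peak at 16 h in U2OS-CHRONO alone. At 20 h, 522 of these (34.6%) again had a peak in U2OS-CHRONO alone, 655 had one in both lines, 231 in neither and 100 (6.63%) in U2OS alone. Of the 1464 regions with a 16 h peak in U2OS alone, 357 (24.4%) had one in U2OS alone at 20 h, 222 in both, 812 in neither and 73 (4.99%) in U2OS-CHRONO alone. With these equal lists the same line was marked again more often than the other line, in either direction. With all peaks this did not hold for the 3100 regions with a 20 h peak in U2OS alone. At 16 h, 185 of them (5.97%) had a peak in U2OS alone and 614 (19.8%) in U2OS-CHRONO alone. The lists compared here are the ones that chose the regions.

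The libraries of 0, 4, 8 and 12 h took no part in choosing the regions, and in them the regions were marked more often in the line that had defined them. With all peaks, U2OS-CHRONO-only regions had a U2OS-CHRONO peak in 50%, 69.9%, 17.4% and 31.0% of cases at 0, 4, 8 and 12 h. A U2OS peak was present in 15.2%, 28.5%, 0.054% and 2.17%. U2OS-CHRONO had the higher share at 4 of 4 times, by 30.6 ± 10.2 percentage points (SD, n = 4 times; two-sided exact paired permutation p = 0.13, the smallest that 4 times allow, and 0.15 after Benjamini-Hochberg adjustment over 6 tests). The U2OS list of 8 h held only 337 peaks, against 2429 in U2OS-CHRONO. U2OS-CHRONO also had the longer list at the other 3 of these times, and with equal lists the difference was 27.6 ± 19.4 points, again at 4 of 4 times (exact paired permutation p = 0.13, adjusted p = 0.15). At 8 h both equal lists held 337 peaks, and the shares were only 0.958% in U2OS-CHRONO and 0% in U2OS.

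U2OS-only regions went the other way in spite of the shorter U2OS lists. A U2OS peak was present in 37.3%, 54.1%, 2.70% and 18.4% of them at 0, 4, 8 and 12 h, and a U2OS-CHRONO peak in 15.1%, 25.9%, 3.78% and 5.95%. The difference, U2OS-CHRONO minus U2OS, was -15.4 ± 12.7 points, with U2OS higher at 3 of 4 times (exact paired permutation p = 0.25, adjusted p = 0.25). With equal lists it was -16.2 ± 9.98 points, with U2OS higher at 4 of 4 times (exact paired permutation p = 0.13, adjusted p = 0.15). The equal-list shares at 8 h were only 2.24% in U2OS and 0% in U2OS-CHRONO.

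Regions of all 4 lists give the level that a region bound in both lines reached at the same times. There the difference was 23.4 ± 19.9 points with all peaks and 9.96 ± 4.52 with equal lists, higher in U2OS-CHRONO at 4 of 4 times in both (exact paired permutation p = 0.13, adjusted p = 0.15 for each). Their U2OS shares were 80.8%, 89.7%, 14.5% and 56.3% and their U2OS-CHRONO shares 91.4%, 96.2%, 65.1% and 82.0%. None of these 6 tests can reach 0.05 with 4 times, and their p-values measure only the spread over these times.

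**Figure D2:**
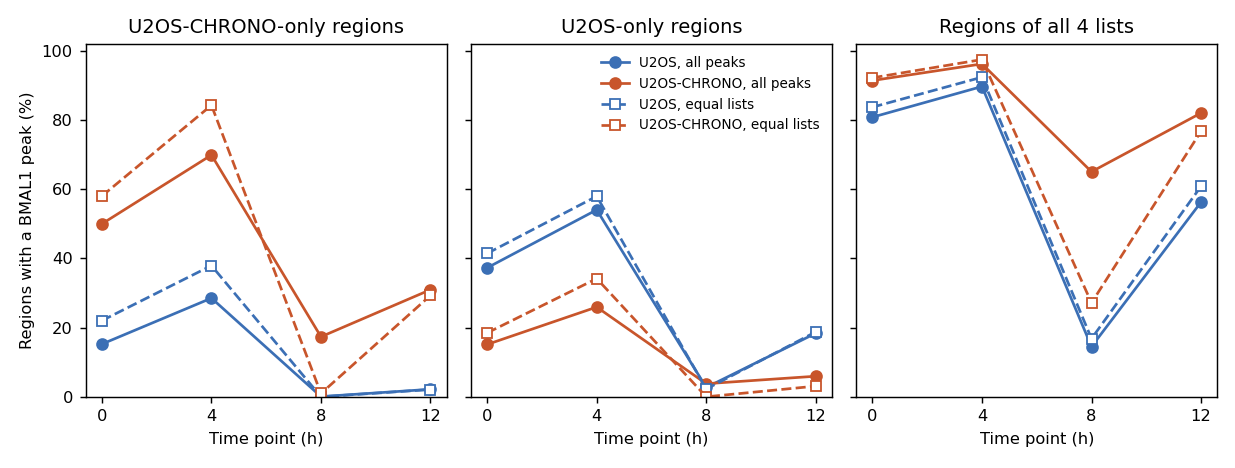
Share of regions (%) with a BMAL1 peak at 0, 4, 8 and 12 h, the times not used to choose them, in U2OS (blue) and U2OS-CHRONO (orange), with all peaks (filled circles, solid lines) and equal lists (open squares, dashed lines). The U2OS-CHRONO line is above the U2OS line in the left panel and, except at 8 h with all peaks, below it in the middle panel.

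Few regions were marked in 1 line throughout. That count needs a peak at 8 h, where the lists were the shortest, with 337 peaks in U2OS and 2429 in U2OS-CHRONO. Of the U2OS-CHRONO-only regions, 1197 (64.9%) had no U2OS peak at any of the 4 other times, and 73 (3.96%) had U2OS-CHRONO peaks at all 4 and no U2OS peak. Another 308 (16.7%) had no peak in any of the 8 other BMAL1 libraries. Of the U2OS-only regions, 123 (66.5%) had no U2OS-CHRONO peak at the 4 other times, 2 had U2OS peaks at all 4 and no U2OS-CHRONO peak, and 50 (27.0%) had no peak in any other BMAL1 library. Of the regions of all 4 lists, 182 (13.7%) had U2OS peaks at all 4 other times and 812 (61.0%) had U2OS-CHRONO peaks. In 4 of them (0.301%) no other BMAL1 library had a peak.

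Regions with high scores were found again most often. Among U2OS-CHRONO-only regions with a mean score percentile of 90 to 100 in the 16 and 20 h U2OS-CHRONO lists (27 regions), a mean of 89.8% of the other U2OS-CHRONO lists and 27.8% of the other U2OS lists had a peak. Among the 603 regions below the percentile of 40 the means were 23.0% and 7.55%. Regions of all 4 lists in the same bands had 98.0% and 74.5%, and 37.0% and 34.3%. In each band of U2OS-CHRONO percentile, the regions absent from U2OS at 16 and 20 h thus had fewer U2OS peaks at the other times. They also had fewer U2OS-CHRONO peaks than the shared regions in each band. Scores were not matched within a band: the highest mean percentile was 97.6 for U2OS-CHRONO-only regions and 100 for shared regions.

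Among the core clock genes, the region with the highest score percentile that was U2OS-only lay inside CRY2, which encodes a repressor of the BMAL1 and CLOCK pair. It spans chr11:45859569-45860161 (hg38), inside the gene (chr11:45847118-45883244) and away from its ends. Whether it is exonic or intronic was not determined, since no exon annotation was used. U2OS had a peak there at all 6 times, with scores of 506.33, 804.31, 179.01, 280.37, 556.34 and 790.95 from 0 to 20 h. U2OS-CHRONO had 1 peak, at 0 h, with a score of 51.46. The U2OS peak ranked 33 of 2794 at 16 h and 41 of 6012 at 20 h, and no peak of any score was listed in U2OS-CHRONO at these times.

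The start of the same gene had a peak in every list. That region, chr11:45844962-45847886, had scores of 719.54 and 2266.35 in U2OS at 16 and 20 h and of 577.33 and 443.23 in U2OS-CHRONO, where the peaks ranked 140 and 143. It also had a Myc peak, with a score of 169.48, while the region inside CRY2 had none. At 16 and 20 h CRY2 therefore had peaks at its start in both lines and peaks in this inner region in U2OS alone. At 20 h 3 other regions at CRY2 also had a U2OS peak and none in U2OS-CHRONO, with scores of 115.88, 74.66 and 54.43.

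CIART had a region in each direction. Its promoter region, chr1:150282245-150282666, was U2OS-only, with scores of 207.02 at 16 h and 182.88 at 20 h and of 120.25 and 156.94 at 0 and 4 h. U2OS-CHRONO had 1 peak there, at 4 h, with a score of 78.66, and the Myc library had none. This is the region whose sequence above has 3 CACGTG elements, and it is shared with LOC124904414, which starts 63 bases from it. Further into the gene, 671 bases past the start, chr1:150283225-150283675 was U2OS-CHRONO-only, with scores of 158.43 and 51.61 at 16 and 20 h. It was in U2OS at 4 and 8 h (73.12 and 85.23) and in the Myc library (88.22). Near the end of CIART, chr1:150286384-150287036 had U2OS-CHRONO peaks at 0, 4 and 16 h (106.59, 179.46 and 203.44), a U2OS peak at 4 h (189.78) and a Myc peak (55.31). U2OS-CHRONO is named after the product of this gene, and whether a CHRONO construct adds reads within CIART was not tested.

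**Figure D3:**
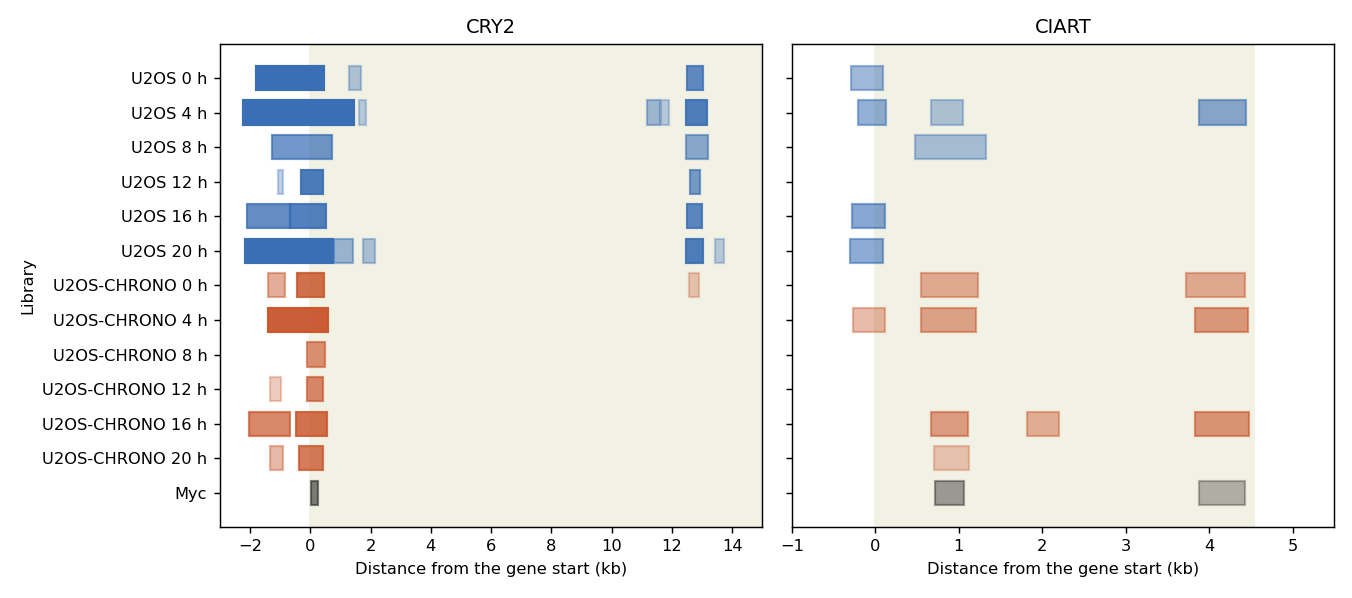
Peaks at CRY2 (left) and CIART (right) in each BMAL1 library and the Myc library (rows), by distance from the gene start in kb. Bars span the peaks, with U2OS in blue, U2OS-CHRONO in orange and Myc in black, darker for a higher score, and the shaded ground is the gene. The peaks near 12 to 13 kb into CRY2 are in all 6 U2OS rows and 1 U2OS-CHRONO row, and the CIART start is marked in 4 U2OS rows and 1 U2OS-CHRONO row.

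BHLHE40, which encodes an E-box repressor, had the U2OS-CHRONO-only region with the highest score percentile among clock genes. It lay near the 3′ end, chr3:4983710-4984637, with scores of 271.04 and 192.81 at 16 and 20 h. U2OS-CHRONO had a peak overlapping it at all 6 times (144.6, 312.07, 50.41 and 73.48 at 0 to 12 h), and U2OS had one at 4 h alone (64.21). The 8 h peak, chr3:4984465-4984672, lay at the edge of the region. Among the other U2OS-CHRONO peaks there it overlapped only that of 16 h. The BHLHE40 promoter was in all 4 lists, with scores of 875.7 and 1191.99 in U2OS and 2144.52 and 1641.58 in U2OS-CHRONO, and 2 other regions within 5 kb of the gene were in all 4 as well.

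The remaining clock regions of 1 line had low scores or lay beside a stronger shared peak. At NPAS2, the partner of BMAL1 in place of CLOCK, chr2:100819054-100819476 scored 55.12 and 61.66 in U2OS-CHRONO at 16 and 20 h and had no peak in any other library. At PER1, chr17:8151167-8151462 scored 53.44 and 56.17, with a U2OS peak at 4 h (121.29) and a region of all 4 lists at the promoter nearby. PER3 had a region within 5 kb at 75.49 and 155.29. DBP, an output activator, had one at 95.14 and 55.76. All 4 regions scored under the last score kept at 16 h, so none was U2OS-CHRONO-only with equal lists. In all, 4 of the 21 core clock genes had a U2OS-CHRONO-only region less than 1 kb from either gene end, 1 had a U2OS-only region and 11 had a region of all 4 lists. Over all protein-coding genes these ends held a U2OS-CHRONO-only region in 2.55%, a U2OS-only region in 0.195% and a region of all 4 lists in 2.43%. Any BMAL1 region lay at an end of 14 core clock genes (66.7%), against 15.9% of all genes. With equal lists the 4 became 1, BHLHE40, and the 1 became 2, CIART and CRY1, the other cryptochrome gene, beside 0.679% and 0.474% of all genes. The CRY1 region, chr12:107092083-107092810, had U2OS scores of 71.77 and 240.26 and a U2OS-CHRONO peak of 52.6 at 16 h, which the equal lists left out.

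Across 20037 protein-coding genes, 510 had a U2OS-CHRONO-only region within 1 kb of an end and 39 had a U2OS-only region. The genes with a region of all 4 lists numbered 486, or 2.43% of all protein-coding genes. Among the 510 there were 11 of them, which is close to that share. CIART and PKM were the 2 genes with regions in both directions. With equal lists the counts were 136 and 95, and all 136 and 39 of the 95 were in the counts with all peaks.

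KLHDC3, a subunit that brings substrates to a ubiquitin ligase, ranked first among genes with a region within 1 kb of an end that was U2OS-CHRONO-only in both versions. Its promoter region, chr6:43013888-43014592, scored 213.92 and 275.5 at 16 and 20 h in U2OS-CHRONO. It had U2OS-CHRONO peaks at all 6 times (307.46 and 378.12 at 0 and 4 h), U2OS peaks at 0 and 4 h (85.11 and 89.47) and a Myc peak (73.27). ZNF84, a zinc finger gene, had chr12:133037148-133037947 at 250.08 and 224.68, with U2OS-CHRONO peaks at all 6 times, 1 U2OS peak at 4 h (65.21) and no Myc peak. These 2 promoters were thus not closed to BMAL1 peaks in U2OS at every time.

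ZCCHC2 followed with 226.31 and 212.34 at its promoter, chr18:62522495-62523158, and had the highest Myc score of the named U2OS-CHRONO-only genes, 141.9. CHRM1, a muscarinic acetylcholine receptor, had 393.98 and 158.73 at chr11:62921532-62922142. SETDB1, a histone H3 lysine methyltransferase, had 221.42 and 199.12 at its start. U2OS had peaks at 2 other times in ZCCHC2, 1 in CHRM1 and 3 in SETDB1. Among the remaining genes named by rank, 3 regions had no U2OS peak at any of the 6 times. One was shared by S100PBP and YARS1, the tyrosyl-tRNA synthetase, at chr1:32816959-32817797 (256.16 and 169.54). The others were at CD2BP2, a splicing factor (190.58 and 162.77), and at FOXD1, a forkhead factor (211.89 and 130.88). CTC1, of the telomere replication complex, ASIC2, an ion channel, ANLN with MATCAP2, and WTAP, of the RNA methylation complex, had U2OS peaks at 2 or 3 other times. The named regions therefore ranged from absence in U2OS throughout to a peak at 3 of its 6 times.

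Away from gene ends, the region with the highest score percentile was chr12:5376501-5377741, 52591 bases from NTF3, the neurotrophin-3 gene. It had U2OS-CHRONO scores of 428.49, 616.55, 158.01, 380.5, 528.04 and 380.6 from 0 to 20 h and no U2OS peak at any time. A region 17766 bases from C13orf46 scored 693.94 and 306.56 at 16 and 20 h, with U2OS peaks at 0, 4 and 12 h. One 36233 bases from RAB11A scored 243.5 and 369.12, with 1 U2OS peak at 4 h. Regions inside VOPP1 (334.57 and 261.95) and IKZF3 (279.01 and 274.82) completed the first 5, and the VOPP1 region had no U2OS peak at any time.

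U2OS-only regions scored lower outside CRY2. A region inside ARSG, a lysosomal sulfatase gene, at chr17:68368276-68368894 scored 151.05 and 318.36 at 16 and 20 h and 178.14, 203.26 and 127.19 at 0, 4 and 12 h. No U2OS-CHRONO library had a peak in it, while U2OS-CHRONO did have peaks elsewhere in ARSG. The region between GET4 and SUN1, chr7:875927-876526, scored 148.85 and 117.7 at 16 and 20 h in U2OS, and 476.41 and 579.16 at 0 and 4 h. U2OS-CHRONO had weak peaks there at 0 to 12 h (91.81, 67.2, 61.85 and 57) and none at 16 and 20 h, and U2OS had none at 8 h. At GET4 and SUN1 both lines thus had a peak at 0, 4 and 12 h, and U2OS-CHRONO alone had one at 8 h. A region inside VXN (159.59 and 234.88) had U2OS-CHRONO peaks at 0, 4 and 12 h, and one 112157 bases from LOC107984449 (132.79 and 263.82) had none at any time.

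ANKS3 and DNAAF8 share a U2OS-only promoter region, chr16:4734473-4735024, with 116.77 and 104.65. SLC2A8, a glucose transporter, had 82.55 and 144.23 at its promoter. MRPL43, a mitochondrial ribosomal protein gene, and TWNK, the mitochondrial helicase gene, share chr10:100987444-100987747, with 92.71 and 91. ANKMY1 with DUSP28 and PTPRS, a phosphatase gene, followed, and none of these 5 regions had a U2OS-CHRONO or Myc peak in any library. SLC48A1, a heme transporter gene, SMIM30 and PIK3IP1, an inhibitor of PI3 kinase, had a U2OS-CHRONO peak at 4 h. At SMIM30 that peak scored 174.47, above its U2OS scores of 65.32 and 93.6 at 16 and 20 h.

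**Figure D4:**
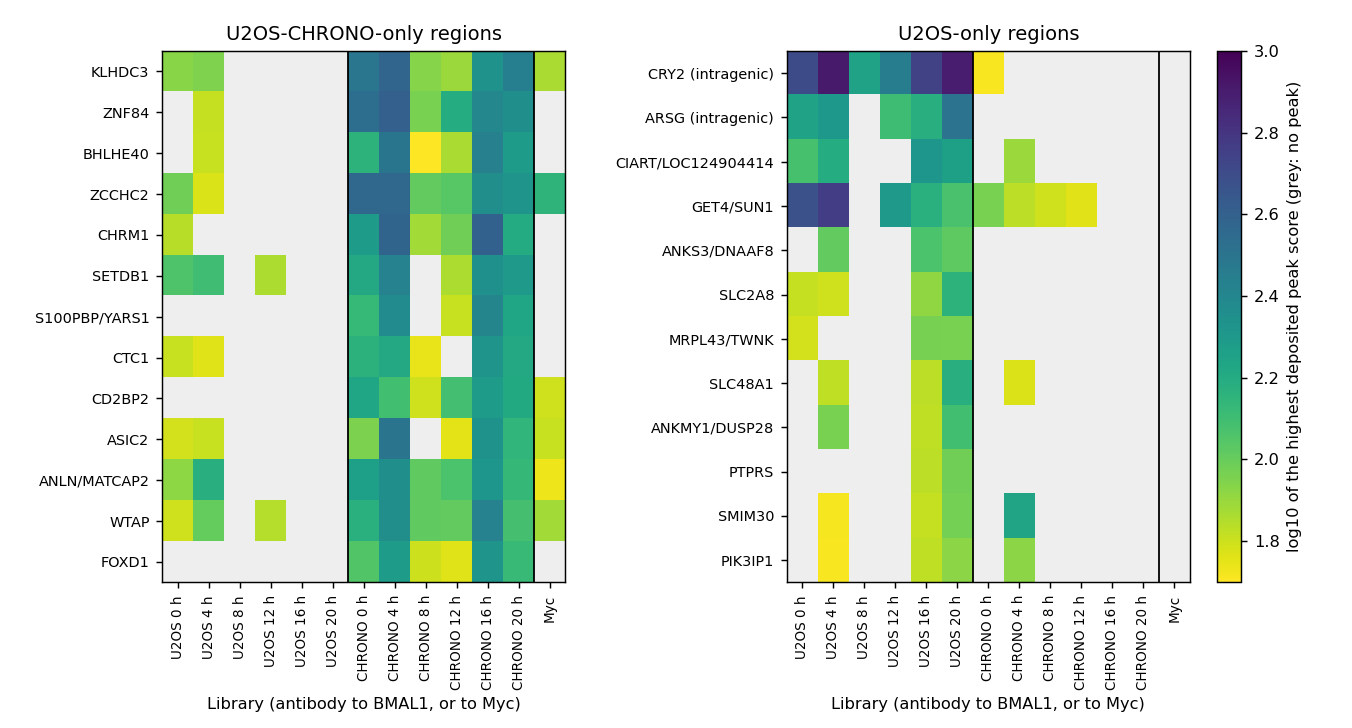
Deposited peak scores (log10 colour scale, darkest at 1000, grey where no peak is listed) of the named U2OS-CHRONO-only regions (left) and U2OS-only regions (right) in each BMAL1 library and the Myc library (columns). Columns of 16 and 20 h chose the regions, and the other columns did not. The regions of KLHDC3, ZNF84 and BHLHE40 are filled in all 6 U2OS-CHRONO columns, and the CRY2 region in all 6 U2OS columns.

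PKM, the pyruvate kinase gene, had regions in both directions less than 1 kb apart. The one at its start, chr15:72231099-72231572, was U2OS-only (100.77 and 54.69), with U2OS-CHRONO peaks at 0 and 4 h and a Myc peak (63.7). The other, chr15:72230154-72230591, was U2OS-CHRONO-only (87.48 and 50.05) with no peak in any other library. ENO1, the enolase gene, was the second glycolytic gene with a U2OS-CHRONO-only region (183.16 and 98.26), and it had no U2OS peak at any time. Of 22 genes of glycolysis and glucose uptake, 2 had a U2OS-CHRONO-only region, 2 had a U2OS-only region (PKM and SLC2A8) and 3 had a region of all 4 lists, beside 2.55%, 0.195% and 2.43% of all genes. Any BMAL1 region lay at an end of 9 of the 22 (40.9%), against 15.9% of all genes.

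Genes of ribosome biogenesis and MYC targets had U2OS-CHRONO-only regions in 4 of 25 and none U2OS-only, beside 2.55% and 0.195% of all genes. Any BMAL1 region lay at an end of 17 of the 25 (68%), against 15.9% of all genes, so this list was marked often in general. The 4 were NOP14 (93.89 and 96.59), ODC1, of polyamine synthesis (85.32 and 88.63), GNL3 (65.25 and 56.94) and EIF4A1, a translation helicase (57.9 and 54.72). At 0 h U2OS had a peak at NOP14 (50.14) and GNL3 (62.02), and it had none at ODC1 at any time. At EIF4A1 U2OS had peaks at 0, 4 and 12 h (183.02, 179.59 and 50.44) and U2OS-CHRONO at 0, 4 and 8 h (97.27, 104.84 and 76.97). All 4 of these regions scored under the 16 h limit of the equal lists, and none was U2OS-CHRONO-only there. The same was so of MXD1 and MLX, 2 of 19 genes of the MYC and MAX network, and of FAM107A and MT2A, which with PER1 made 3 of 20 glucocorticoid-induced genes. It was also so of AURKA and MCM7 (2 of 30 cell cycle genes), RPL18 (1 of 28 ribosomal protein genes) and PPARGC1A (1 of 22 clock output genes). Nuclear receptors had NR4A3 (149.92 and 90.68) and ESRRA in U2OS-CHRONO and ESR2 (50.43 and 77.22) in U2OS, of 32 genes, and NR4A3 and ESR2 remained with equal lists. Any BMAL1 region lay at an end of 42.1% of the MYC and MAX network, 40% of the glucocorticoid-induced and 36.7% of the cell cycle genes. The shares were 28.6% of the ribosomal protein genes, 59.1% of the clock output genes and 25% of the nuclear receptors, against 15.9% of all genes.

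Lysosomal genes (29), clock kinases and cofactors (19 in the gene table), osteoblast genes (16) and marker genes of other cell types (20) had no region in either direction with all peaks. With equal lists FLCN, the folliculin gene, was the 1 lysosomal gene with a U2OS-only region. Of the osteoblast genes 1 had any BMAL1 region at an end, and of the other cell type markers 2 did, against 15.9% of all genes. Peak lists hold no expression, so the labelled cell type was not checked against its markers. Set beside 2.55% of all genes, a few genes in a list of 20 to 30 rest on small numbers, and no difference between lists was tested.

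Regions of 1 line were less often shared with the Myc library than regions of both lines. A Myc peak overlapped 186 of the 1844 U2OS-CHRONO-only regions, 10.1% (Wilson 95% interval 8.79 to 11.5%, counting error only). It overlapped 7 of the 185 U2OS-only regions, 3.78% (1.84 to 7.60%). Among regions of all 4 lists the share was 34.8% (32.3 to 37.4%), and among all 14516 regions 8.22%. With equal lists the shares were 13.2%, 3.92% and 39.1%. The Myc library came from U2OS-CHRONO, so U2OS-only regions lack BMAL1 peaks at 16 and 20 h in the line it was made from.

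The contrast differed with the score. Among regions with a mean U2OS-CHRONO percentile of 60 to 80, the share with a Myc peak was 12.9% of 488 U2OS-CHRONO-only regions and 13.9% of 266 regions of all 4 lists. At 80 to 90 it was 13.6% of 118 (8.52 to 20.9%) and 23.9% of 306 (19.4 to 28.9%). At 90 to 100 it was 29.6% of 27 (15.9 to 48.5%) and 57.8% of 571 (53.7 to 61.8%). At 40 to 60 it was 8.22% of 608 (6.29 to 10.7%) and 14.9% of 134 (9.87 to 21.9%), and below 40 it was 8.13% of 603 (6.20 to 10.6%) and 5.56% of 54 (1.91 to 15.1%). The shared regions thus had the higher share in 4 of the 5 bands, with intervals apart only at 90 to 100. Scores were not matched within a band. By U2OS percentile, 0 of 42 U2OS-only regions at 60 to 80 had a Myc peak (interval up to 8.38%), against 26.0% of 393 regions of all 4 lists.

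**Figure D5:**
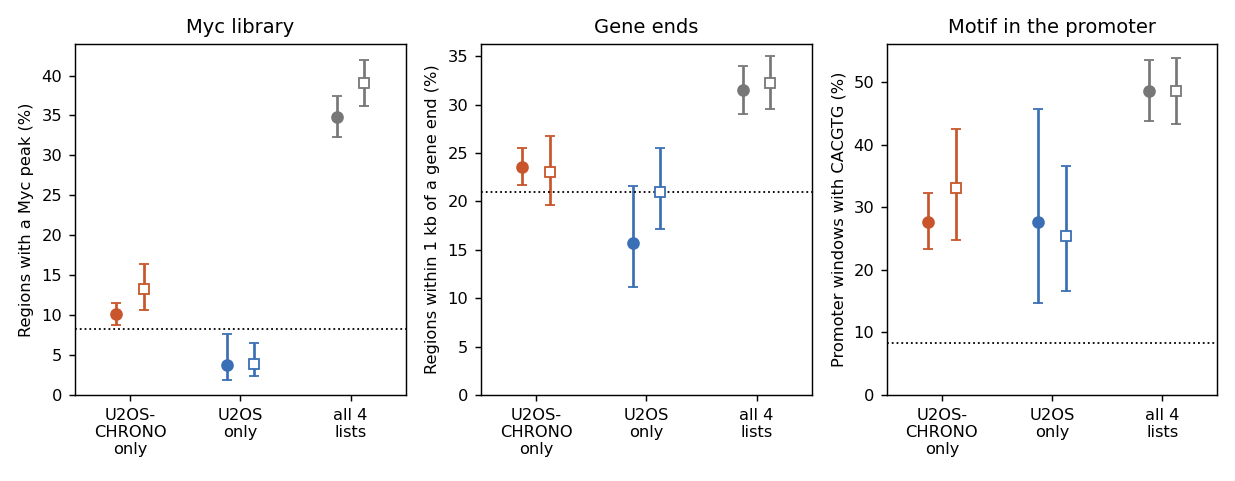
Share (%) of regions with a Myc peak (left), of regions within 1 kb of a gene end (middle) and of overlapped promoter windows holding CACGTG (right), for U2OS-CHRONO-only, U2OS-only and shared regions, with all peaks (filled circles) and equal lists (open squares). Bars are Wilson 95% intervals, which cover counting error only, and dotted lines give all merged regions (left, middle) or all promoter windows (right); regions of all 4 lists have the highest share in each panel.

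Gene ends were near 23.5% of the U2OS-CHRONO-only regions (21.7 to 25.5%), 15.7% of the U2OS-only regions (11.1 to 21.6%), 31.5% of the regions of all 4 lists (29.0 to 34.0%) and 21.0% of all regions. With equal lists the first 3 shares were 23.0%, 21.0% and 32.3%, so the lower share of U2OS-only regions was not seen there. Inside a gene and away from its ends lay 37.3% of the U2OS-CHRONO-only and 42.7% of the U2OS-only regions, and outside genes lay 39.2% and 41.6%. A region of all 4 lists was within 10 kb of 5.31% of the U2OS-CHRONO-only regions (4.38 to 6.43%) and 10.8% of the U2OS-only regions (7.11 to 16.1%). Most regions of 1 line thus had no region of all 4 lists within that distance, but the share over all merged regions was not computed. Whether they lay nearer to shared regions than other regions did, or farther from them, was not tested. Median widths were 442 bp and 420 bp, against 651 bp for regions of all 4 lists.

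Promoter windows under these regions held E-boxes less often than those under shared regions, though the intervals of U2OS-only and shared regions overlapped. Scores and widths of the regions were not matched between the sets. CACGTG, searched on both strands (it reads the same on each), was in 107 of 388 windows overlapped by U2OS-CHRONO-only regions (27.6%, Wilson 95% interval 23.4 to 32.2%). It was in 8 of 29 windows under U2OS-only regions (27.6%, 14.7 to 45.7%) and 193 of 397 under regions of all 4 lists (48.6%, 43.7 to 53.5%). The 8 include the windows of CIART and LOC124904414, which share an element. Windows under any region had it in 27.2%, and all 22183 windows of 300 bases in the table in 8.34%. E-boxes were therefore about as frequent in promoters marked in either line alone as in promoters under any BMAL1 region.

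The other motifs searched on both strands differed less between the sets, with 1 exception. CACGTT was in 9.02%, 13.8% and 11.1% of the 3 sets of windows and 5.43% of all windows. TGANTCA was in 4.38%, 3.45% and 7.05%, and 6.15% of all. GGGCGG was in 77.3%, 69.0% and 79.3%, and 56.3% of all. CCAAT was in 38.1% of the windows under U2OS-CHRONO-only regions and 41.6% under shared regions, but in 19 of 29 (65.5%, 47.3 to 80.1%) under U2OS-only regions, against 43.1% under any region and 34.7% of all. With equal lists the CCAAT shares were 31.1%, 41.3% and 59.2% (42 of 71, 47.5 to 69.8%) in the same order. Windows of genes that start close together can overlap, as for ANKS3 with DNAAF8 and CIART with LOC124904414, and then share CCAAT matches. The windows are therefore not independent, and their intervals may be too narrow. A motif match describes letters in a window and shows no bound factor.

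U2OS-CHRONO-only regions were found on every chromosome with a listed region from 1 to 22 and X, from 9.57% of the regions on chromosome 14 to 16.3% on chromosome 9 (13.6 to 19.4%). U2OS-only regions ranged from 0.350% on chromosome 3 to 2.33% on chromosome X (0.908 to 5.83%). Copy number differences between the lines were not tested.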

How the data were processed

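The deposited files were 1 peak list per immunoprecipitation library, with chromosome, start, end and score. The score is the authors' own deposited value, used only to describe, rank or filter peaks. Per the submitters' processing notes, hg38, bedtools, HOMER 4.10.3 and MACS 1.4.2 were used, with no role stated. The sources used here do not give the aligner, the calling control or the depth.

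Peaks sharing at least 1 bp were joined, and the 14516 regions equalled those of bedtools 2.31.1. Simulated lists with 200 and 100 planted regions returned all of them. Genes (20037) and promoter windows (22183, of 15843 genes) came from RefSeq, GRCh38.p14. The gene table gives no strand, so both ends count. The lines were compared at 0, 4, 8 and 12 h with the times as pairs, by exact two-sided sign-flip permutation, adjusted over 6 tests (Benjamini-Hochberg). The members and the 13 gene lists were chosen with earlier results of these data known. Genes named are all core clock genes with a region of 1 line, the 15 highest by mean score percentile in each direction, up to 4 per other list and the 5 highest regions anywhere. ACBD5, outside that rule, was added for its promoter after its values were seen. All but 1 of 304 list symbols were in the table. Alternatives were other overlaps, windows, score minimums and list lengths, and each time left out. Scripts ran in Python 3.11.15 with SciPy 1.17.1, NumPy 2.4.6 and matplotlib 3.10.9.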

Additional observations from a re-analysis of the deposited data

How the results depend on the processing

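The excess of U2OS-CHRONO-only over U2OS-only regions depended on list length and on requiring both times. Equal lists gave 522 and 357 regions and 136 and 95 genes, all 4 lists at the length of the shortest 536 and 305, and a score of at least 100 gave 792 and 50, with 525 in all 4 lists. With 1 time left out the counts ran from 4001 to 7600, from 981 to 3150 and, for regions in both lines, from 1759 to 2815. Equal lists with 1 time left out, an alternative chosen after seeing the data, gave 1521 to 3264, 1478 to 3266 and 1268 to 2699, so at a single time the directions were close to even, as lists of equal length make likely.

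Equal lists moved the Myc share to 13.2% (U2OS-CHRONO-only) and 39.1% (all 4 lists) and the CACGTG share of U2OS-CHRONO-only promoters to 33.0%. Myc peaks scoring at least 100 overlapped 0.759%, 0 and 10.8%. A 5 kb window gave 34.8%, 31.4% and 41.8% of regions and 787 and 76 genes. Overlap of 50%, centres within 500 bp, no peak of the other line within 1 kb, and chromosomes 1 to 22 and X kept every count of regions within 1.5 times. The differences at 0 to 12 h kept their direction in each of their alternatives, from 27.0 to 35.0 points for U2OS-CHRONO-only regions, from -20.9 to -11.2 for U2OS-only and from 14.3 to 29.0 for shared regions with 1 time left out. With regions of equal lists but all peaks at those times, also chosen after seeing the data, the U2OS-only difference was -7.56 points, the nearest to 0 of its alternatives. The paired tests took time as the replicate block. Without that pairing the differences were the same by construction (30.6, -15.4 and 23.4 points), and the exact permutation p was 0.057, 0.31 and 0.2 for the U2OS-CHRONO-only, U2OS-only and shared regions.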
